A study of Homo sapiens with 26 samples.

Results

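The replication-dependent histone genes were followed in TF-1 cells, a human erythroleukemia line that grows only with a cytokine, with and without TET2, a dioxygenase that oxidises 5-methylcytosine. Members were the gene rows whose identifier maps to a clustered histone gene by its current symbol (H1-1 to H1-6, or H2AC, H2BC, H3C or H4C with a number) or by an older name beginning HIST1H to HIST4H. This gave 35 members of 57773 gene rows, after 20 histone pseudogene rows were left out of the 55 that matched. They comprised 6 H1, 8 H2A, 11 H2B, 6 H3 and 4 H4 genes. Of the 35, 23 lay in the large cluster on chromosome 6, 7 at 1q21, 3 at 1q42, and 2 outside these clusters (H4C16 and H2BC12L). The knockout (TET2 -/-) was represented by clones F4 and A12 and the wild type by clones A7 and C4. Each clone received either 200 nM 5-azacytidine (Aza), a cytidine analogue that traps DNA methyltransferases, in the solvent DMSO, or DMSO alone, on 3 days in a row. RNA was taken before treatment, at 72 h and at 264 h, both counted from the first dose. The 25 libraries that passed quality control were 2 KO and 2 WT libraries of Aza at 72 h, 3 KO and 2 WT libraries of DMSO at 72 h, 2 KO and 2 WT libraries of Aza at 264 h, 4 KO and 2 WT libraries of DMSO at 264 h, 2 KO and 2 WT libraries before treatment, and 2 KO libraries of a DMSO group at time 0 from a second experimental batch. Another library, of KO clone F4 with DMSO at 72 h, failed quality control and was left out. The 2 clones of a genotype are its only replicates, and the repeat libraries of a KO clone come from the 2 batches. Most comparisons use 1 model of all 25 libraries, which fits a constant difference between clones and between batches. Its p-values reflect the spread left between libraries, pooled over all groups, and not the full spread between clones. Comparisons of KO with WT have no clone term, and their p-values reflect the spread between clones.

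Replication-dependent histone genes supply the bulk of the core histones H2A, H2B, H3 and H4 and of linker histone H1 that package newly made DNA, and their messages accumulate in S phase. Most of these genes lack introns, and their messages end in a conserved stem-loop bound by SLBP in place of a poly(A) tail. Some of them also yield polyadenylated transcripts, described in differentiating and non-dividing cells, from polyadenylation sites farther downstream. The libraries here were made with a kit that selects poly(A) RNA, so the values below describe the histone transcripts that such a library retained, and total histone mRNA was not measured.

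Libraries held 24992192 to 40187322 counts assigned to genes (median 27477937), of which the members took 0.00206% to 0.00642%. TET2 counts do not check the genotype labels: the gene had 23.6 to 46.2 counts per 1000000 assigned counts (CPM) in 15 KO libraries and 21.9 to 29.7 CPM in 10 WT libraries, and where in the gene the edit lies is not given in the sources used here. Markers of TF-1 cells summed to 3904 to 6962 CPM and markers of other cell types to 32 to 68.5 CPM over all libraries. Each of these lists held 1 gene with no count in any library. In WT, deviations of a clone from its group mean correlated positively between the later conditions (0.792 to 0.864) and negatively between any of them and the pre-treatment libraries (-0.806 to -0.752), so the pre-treatment libraries labelled A7 and C4 go against their labels. They are also among the 25 libraries of the model that the Aza and DMSO comparisons share, so their labels bear on its estimate of spread. Comparisons made directly with them name this below. The cluster on chromosome 6 also held 38 of 124 rows, and the 1q21 cluster 7 of 18, with identifiers that no current name could be given to, with summed mean counts of 542 and 10.2 a library against 920.6 and 79.4 for the members. These rows were not analysed here, and histone genes may be among them. The levels and family sums below therefore cover the named members only, not whole histone families.

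The stem-loop is shown first because it is the signal at which most replication-dependent histone messages end. It consists of a stem of 6 base pairs and a loop of 4 bases. At least 1 annotated transcript of 17 of the 35 members held it, against 36 of all 19684 protein-coding genes searched (0.183%). The 7 sites printed are those of the members that were among the 10 with the highest level or were called in a comparison. Transcripts are from GENCODE release 29, each site runs 5′ to 3′ on the transcript with 5 bases on either side, and capitals mark the stem-loop.
H2AC25: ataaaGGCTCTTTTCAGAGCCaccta
H2AC6: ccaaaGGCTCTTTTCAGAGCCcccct
H2BC5: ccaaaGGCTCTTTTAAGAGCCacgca
H2BC13: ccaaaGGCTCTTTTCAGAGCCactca
H2AC13: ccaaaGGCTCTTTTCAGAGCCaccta
H2BC15: acaacGGCTCTTTTCAGAGCCaccta
H4C11: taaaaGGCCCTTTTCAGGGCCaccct
Of the 17 members, 10 shared the form carried by H2AC25, 3 had the loop variant of H2BC5, and all 3 H4 genes with a match had the form of H4C11. H2AC11 had complementary letters at 5 of the 6 stem positions, and T opposite G at the other. In 7 members at least 1 transcript ended within 50 bases of the stem-loop, as in H4C11 (6 bases), H2AC13 (39) and H2BC13 (40). In the other 10 every transcript that held it ran farther, to 390 bases in H2AC25 and to 1114 to 1128 bases in H2AC6. No match was found in the annotated transcripts of the other 18 members, among them H2BC12, H2BC11, H2AC20, H1-2 and H4C3, which says only that these letters are not in those annotated sequences.

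Promoters of the 4 members called at 72 h are shown because these members moved together or apart in the same comparison. RefSeq promoters on GRCh38.p14 were available for 32 of the 35 members. Stretches of 150 bases that end at the base before the annotated start are given 5′ to 3′ on the gene's strand. Capitals mark the letters TATAAA of the TATA box, CCAAT of the CCAAT box and ATTTGCAT of the octamer, searched on either strand, and no matches overlap in these stretches. H2BC12 is at chr6:27146859-27147008 (minus strand), H2BC11 at chr6:27132796-27132945 (minus strand), H2BC15 at chr6:27838419-27838568 (plus strand) and H2AC20 at chr1:149886768-149886917 (plus strand).
H2BC12: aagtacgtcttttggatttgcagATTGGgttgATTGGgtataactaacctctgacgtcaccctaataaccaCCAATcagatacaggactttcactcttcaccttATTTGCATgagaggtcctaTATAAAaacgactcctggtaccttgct
H2BC11: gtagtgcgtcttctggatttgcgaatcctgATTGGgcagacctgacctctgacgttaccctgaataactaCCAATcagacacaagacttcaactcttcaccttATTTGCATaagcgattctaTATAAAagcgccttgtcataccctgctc
H2BC15: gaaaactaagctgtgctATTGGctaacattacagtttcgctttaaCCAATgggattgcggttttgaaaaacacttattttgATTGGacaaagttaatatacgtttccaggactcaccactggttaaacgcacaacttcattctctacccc
H2AC20: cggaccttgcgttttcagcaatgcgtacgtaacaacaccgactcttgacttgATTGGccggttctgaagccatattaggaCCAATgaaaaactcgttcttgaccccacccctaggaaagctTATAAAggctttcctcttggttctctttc
H2BC12 and H2BC11 carried all 3 motifs in nearly the same place, with the octamer at position -46 in H2BC12 and -47 in H2BC11, and TATAAA at -27 in H2BC12 and -28 in H2BC11. H2BC15 had CCAAT boxes in this stretch and no match to the other motifs. H2AC20 had TATAAA at -29 and CCAAT at -70, and its octamer match lay farther upstream, at -197. Over windows from 250 bases before to 50 after the start, TATAAA was found in 68.8% of the members' promoters against 12% of all 27305, CCAAT in 90.6% against 35.7%, and the octamer in 40.6% against 1.8%. With TATAAA limited to positions -40 to -20 on the gene's strand, the shares were 62.5% and 2.55%. A match is a description of the letters, and binding was not measured.

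A few members made up most of the counts of the 35 members. The members drew 26943 counts over the 25 libraries, of which H2BC12 and H1-2 held 38.6% and the 10 members with the most counts held 82.2%. In all libraries 4 members had no count (H3C15, H2AC1, H2BC1 and H2AC7), and 98% of the exon bases of H2AC7 overlap H3C4. H3C15 and H3C14 are near-identical copies, and with 0 and 5 counts neither could be judged. A count was found in every library for 22 members, 13 stayed under 10 counts in every library, and 22 passed the filter on low counts and were tested. Scaled to exon length, H2BC12 had the highest mean level, 9.74 ± 4.83 CPM per kilobase (SD over 25 libraries, range 5.04 to 27), and it encodes an H2B protein. Linker histone H1-2 followed at 8.97 ± 3.39 CPM per kilobase. H2AC25 (5.04 ± 1.38), H2AC20 (3.92 ± 1.46) and H2AC6 (3.40 ± 1.98), which encode H2A proteins, came next in CPM per kilobase, and then the H4 gene H4C3 at 2.12 ± 1.04. H2BC5, H2BC13, H2AC13 and H2BC11 lay between 1.39 and 1.72 CPM per kilobase. Adjacent genes in this order had overlapping ranges. No H3 gene among the members exceeded a mean of 0.552 CPM per kilobase, the value of H3C13.

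**Figure D1:**
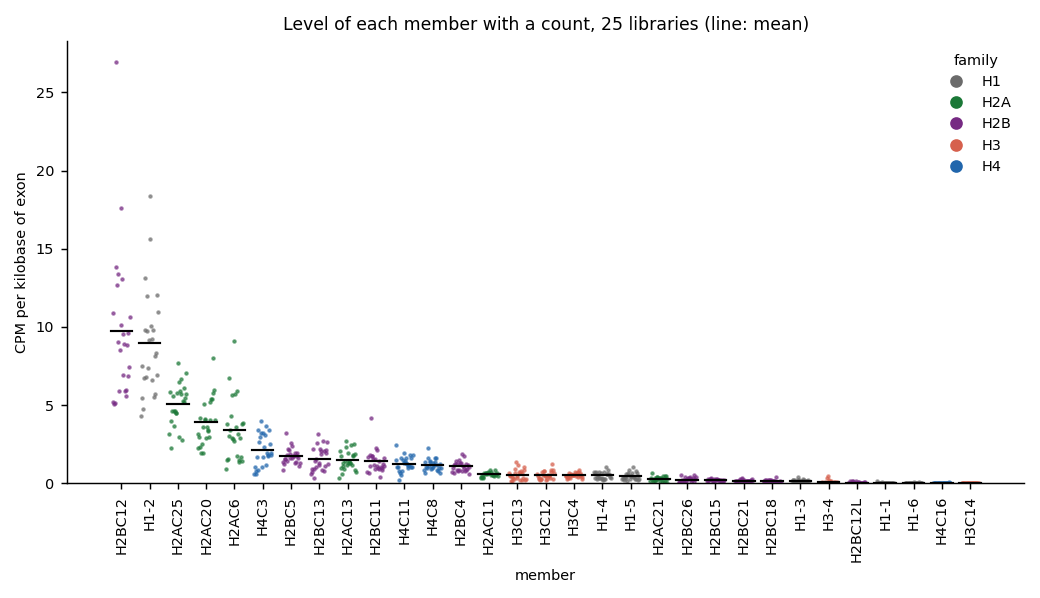
Level of each of the 31 members with a count, in CPM per kilobase of exon, with 1 point per library (25), coloured by histone family, and a line at the mean. H2BC12 and H1-2 stand above the rest, and no H3 gene among the members exceeds 1.38 in any library.

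Summed over the 35 members, the level was 50.1 ± 20.1 CPM in KO Aza at 72 h (SD, n = 2 libraries, F4 35.9, A12 64.4). In KO DMSO at 72 h the sum was 39.5 ± 3.06 CPM (n = 3 libraries, F4 36.1, A12 41.8 and 40.7). The difference between these means thus lay in A12, and F4 had nearly the same sum in both. The sum was 39.8 ± 0.413 CPM in WT Aza and 38 ± 1.05 CPM in WT DMSO at 72 h (n = 2 each). At 264 h it was 49.9 ± 18.6 CPM in KO Aza, 35.8 ± 5.34 CPM in KO DMSO, 45.2 ± 10.9 CPM in WT Aza and 31.8 ± 9.61 CPM in WT DMSO. Clone A12 was above F4 in 7 of 7 conditions, by 1.13 to 1.83 times, and A7 was above C4 in 4 of 5, by up to 1.54 times. The exception (ratio 0.878) was the pre-treatment pair, whose labels are in doubt. H2AC6 shows this gap, with 6.34 CPM in A12 and 1.47 CPM in F4 before treatment, and 15.2 CPM in A12 and 4.56 CPM in F4 after Aza at 264 h. In bulk RNA, fewer cells in S phase and less histone RNA per cell cannot be told apart. At 72 h H2B genes summed to 25.7 ± 10.7 CPM in KO Aza against 12.8 ± 1.24 CPM in KO DMSO, and to 17.7 ± 0.851 CPM in WT Aza against 13.0 ± 1.34 CPM in WT DMSO. H2BC12 alone had 16.7 ± 7.62 CPM in KO Aza against 6.97 ± 1.21 CPM in KO DMSO, and 10.7 ± 0.403 CPM in WT Aza against 5.9 ± 1.52 CPM in WT DMSO, most of the difference between the H2B sums. H3 genes summed to 0.773 ± 0.164 CPM in KO Aza against 1.5 ± 0.471 CPM in KO DMSO, and to 0.909 ± 0.201 CPM in WT Aza against 1.6 ± 0.143 CPM in WT DMSO. H2A genes summed to 13.3 CPM in KO Aza and 13.8 CPM in KO DMSO, and to 11.6 CPM in WT Aza and 11.9 CPM in WT DMSO. These sums are given as descriptions, with no test.

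**Figure D2:**
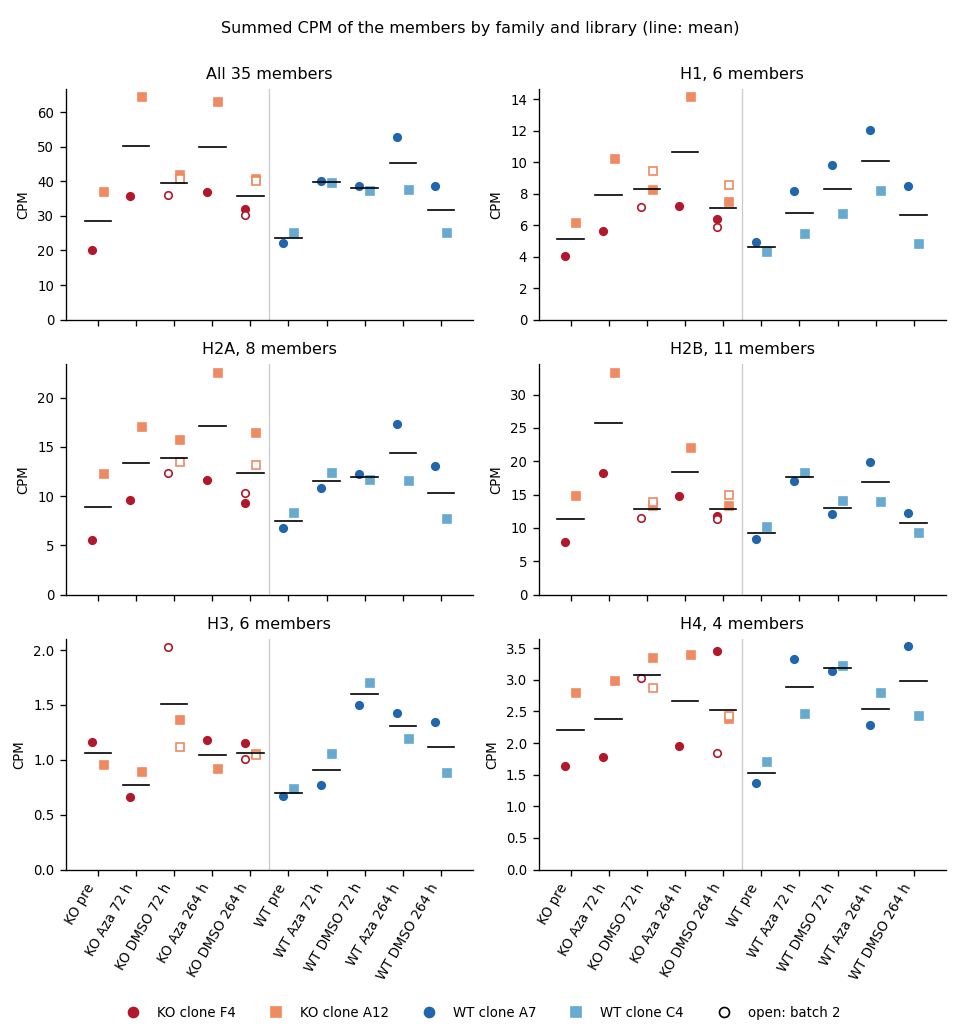
Summed CPM of the members by family (panels) and condition (horizontal axis), 1 symbol per library, with clone shown by colour and shape, batch 2 open, and a line at the group mean. Mean H2B sums are highest after Aza at 72 h in both genotypes, mean H3 sums are lower after Aza than after DMSO at 72 h, and clone A12 lies above F4 in the sum over all 35 members.

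The H2B genes H2BC12, H2BC11 and H2BC15 rose and the H2A gene H2AC20 fell in KO cells at 72 h of Aza. A gene is called here at an adjusted p under 0.05 from edgeR's quasi-likelihood test, with Benjamini-Hochberg adjustment over all 18391 genes tested. By this rule 4 of the 22 members tested were called, while 20.1% of all genes were called (11.6% higher, 8.47% lower), so the share of members called is close to that background. The median log2 fold change of the 22 members was -0.15, against 0.01 for all genes. H2BC12 (ENSG00000197903.6, HIST1H2BK, hg19 chr6:27106073-27114619, minus strand, 2 exon blocks) had 11.3 CPM in F4 and 22.1 CPM in A12 with Aza, against 7.41, 5.60 and 7.91 CPM in A12, F4 and A12 with DMSO. Both Aza libraries lay above all 3 DMSO libraries. Its log2 fold change was 1.46 (SE 0.18, adjusted p = 2.03e-06). H2BC11 (ENSG00000124635.7, HIST1H2BJ, chr6:27093676-27100541, minus strand), a nearby H2B gene with 3 exon blocks, had 1.97 CPM in F4 and 4.58 CPM in A12 with Aza, against 1.71, 1.10 and 1.36 CPM with DMSO (A12, F4, A12). The groups did not overlap, and A12 with Aza stood far above the rest. Its log2 fold change was 1.32 (SE 0.34, adjusted p = 0.00737).

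H2BC15 (ENSG00000233822.3, HIST1H2BN, chr6:27806323-27823487, plus strand), another H2B gene of the cluster, also with 3 exon blocks, had 1.16 CPM in F4 and 1.49 CPM in A12 with Aza, against 0.512, 0.773 and 0.599 CPM with DMSO (A12, F4, A12). The groups were apart, and its log2 fold change was 1.18 (SE 0.38, adjusted p = 0.0316). H2AC20 (ENSG00000184260.4, HIST2H2AC, chr1:149858525-149858961, plus strand, 1 exon block), an H2A gene of the 1q21 cluster, had 1.005 CPM in F4 and 0.853 CPM in A12 with Aza, against 1.57, 3.51 and 2.52 CPM with DMSO (A12, F4, A12). Both Aza libraries were below all 3 DMSO libraries, and the log2 fold change was -0.96 (SE 0.28, adjusted p = 0.0158). H3C13, an H3 gene, was not called, with a log2 fold change of -2.06 (adjusted p = 0.052) and 0.0711 to 0.155 CPM with Aza against 0.359 to 0.419 CPM with DMSO. Its Aza values are 4 counts in F4 and 2 counts in A12, just above and under the 3 counts taken as the floor, so the size of that fold change is uncertain. The calls depended on the clones and on batch 2, and the number of all genes called moved too. In the main fit 3694 of 18391 genes were called, with the WT pre-treatment labels exchanged 4587 of 18391, and with the failed library included 2176 of 18463. In batch 1 alone, without A12 and without F4, fewer of all genes were called than in the main fit. The loss of calls there was therefore not particular to the members. In batch 1 alone, where A12 is the only KO DMSO library at 72 h, H2BC12 was the only member called, and with the WT pre-treatment labels exchanged 7 were. With the failed library included 2 members were higher and 4 lower (H2BC15 not called, and H3C13, H4C11 and H4C3 called lower), against 3 higher and 1 lower without it. Without A12 the count was 0 (H2BC12 log2 fold change 1.14, adjusted p = 0.193; H2BC11 1.02 and 0.596; H2BC15 0.34 and 0.891; H2AC20 -0.95 and 0.442), and without F4 only H2BC12 was called. Over the 14 alternatives the adjusted p ran from 7.36e-16 to 0.193 for H2BC12, 0.000202 to 0.596 for H2BC11, 0.0202 to 0.891 for H2BC15 and 0.00522 to 0.442 for H2AC20, and none changed sign.

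In WT cells at 72 h the same test called H2BC12 higher and H2AC20 lower, 2 of 22 members, against a background of 18.3% of all genes (9.26% higher, 9.04% lower), so fewer members were called than genes in general. H2BC12 had 10.4 CPM in A7 and 11.0 CPM in C4 with Aza, against 4.82 CPM in A7 and 6.97 CPM in C4 with DMSO. All Aza libraries were above all DMSO libraries, and the log2 fold change was 0.87 (SE 0.18, adjusted p = 0.000871). Leaving out any clone kept this call, and fitting without the clone term ended it (adjusted p = 0.173, within a range of 5.54e-09 to 0.173 over 14 alternatives). H2AC20 had 1.10 CPM in A7 and 0.857 CPM in C4 with Aza, against 2.21 CPM in A7 and 1.77 CPM in C4 with DMSO, a log2 fold change of -1.0 (SE 0.26, adjusted p = 0.00871). Without A7 its adjusted p was 0.104 and without C4 0.0893, over a range of 0.00302 to 0.104. H2BC11 had 1.90 and 1.91 CPM with Aza against 1.27 and 1.03 CPM with DMSO (A7, C4), a log2 fold change of 0.75 that did not pass (adjusted p = 0.159). The median over the 22 members was -0.22, against 0.0020 for all genes. Fitted on the libraries of the groups compared alone, 6 of 20 members tested were called, beside 5135 of all 16321 genes tested.

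The difference between the genotypes in these Aza effects was tested directly, as KO minus WT. No member was called at 72 h or at 264 h, where 0% of all genes were called. At an unadjusted p under 0.05 there was 1 member at 72 h (H2BC12, difference 0.58 on the log2 scale, SE 0.25, adjusted p = 1) and 0 at 264 h, and DESeq2 called 0 at both times. The differences ranged from -1.14 to 1.32 at 72 h and from -1.79 to 1.29 at 264 h.

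**Figure D3:**
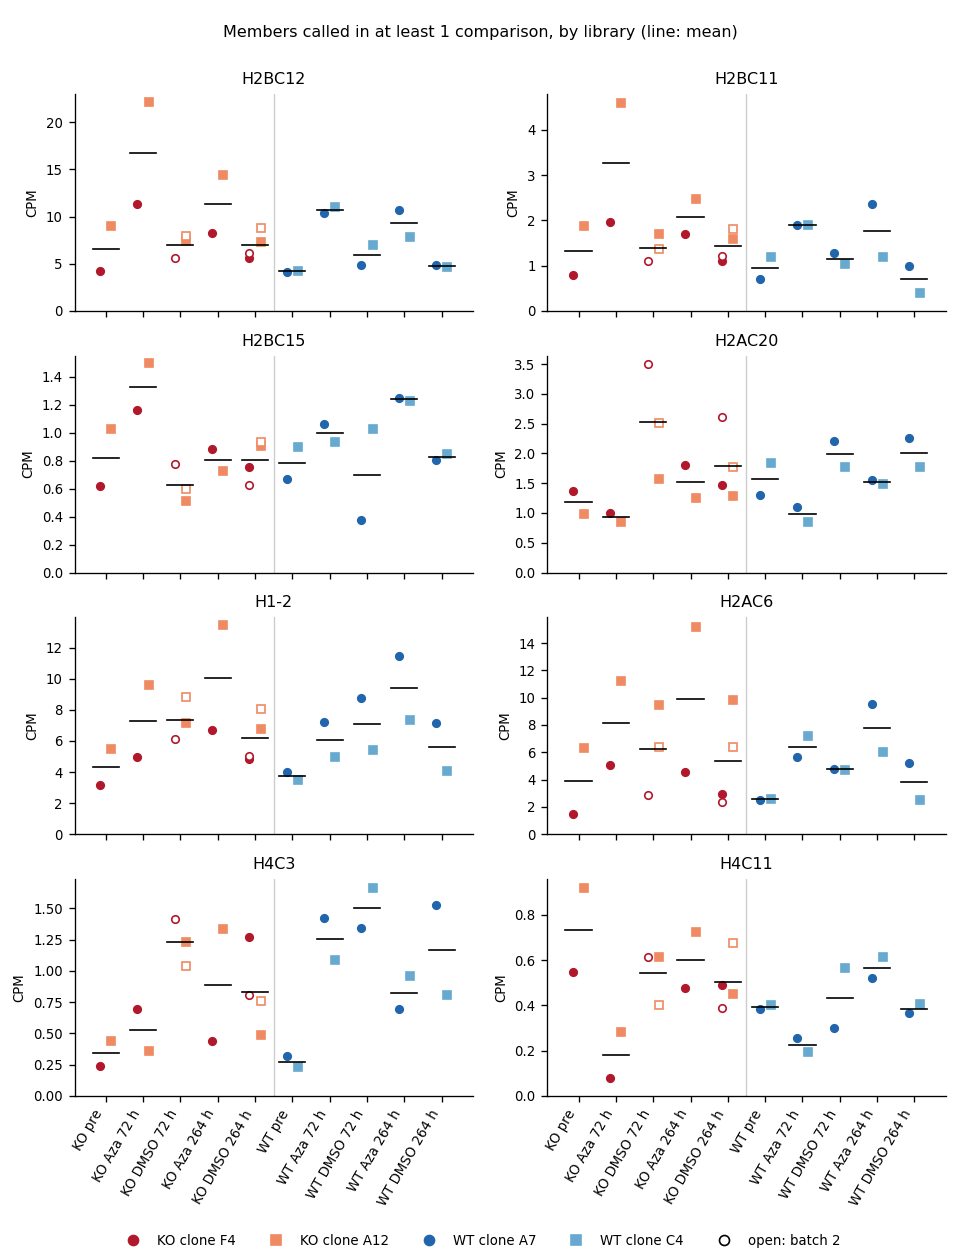
CPM of the 8 members called in at least 1 comparison, 1 panel each, by condition (horizontal axis), with 1 symbol per library, clone by colour and shape, batch 2 open, and a line at the group mean. The group mean of H2BC12 is highest after Aza at 72 h in both genotypes, that of H2AC20 is lowest there, and that of H4C3 is lowest before treatment.

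At 72 h the signs of the fold changes were split by the exon structure of the annotated gene, a split made after the values were seen and given with no test. Of the members annotated with several exon blocks 10 of 11 were tested. In KO, 8 of these 10 had positive log2 fold changes with Aza (median 0.28), and 3 of the 12 tested members with 1 exon block did (median -0.91). In WT, 6 of 10 with several blocks were positive (median 0.15), and 0 of the 12 with 1 block were (median -0.59). All 3 of the called rises in KO were in the several-block group, and the called fall was in H2AC20, which has 1 block. At 264 h the split was smaller: in KO 7 of 10 several-block members (median 0.21) and 8 of 12 members with 1 block (median 0.14) were positive, and in WT 7 of 10 (median 0.28) and 6 of 12 (median 0.05). KO against WT also showed a split. Before treatment 7 of 9 several-block members (median 0.49) and 3 of 8 with 1 block (median -0.18) were positive. In Aza at 72 h these were 8 of 9 (median 0.37) and 2 of 8 (-0.33). In DMSO at 264 h they were 6 of 9 (0.13) and 4 of 10 (-0.19), and in Aza at 264 h 5 of 9 (0.029) and 4 of 9 (-0.0085).

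**Figure D4:**
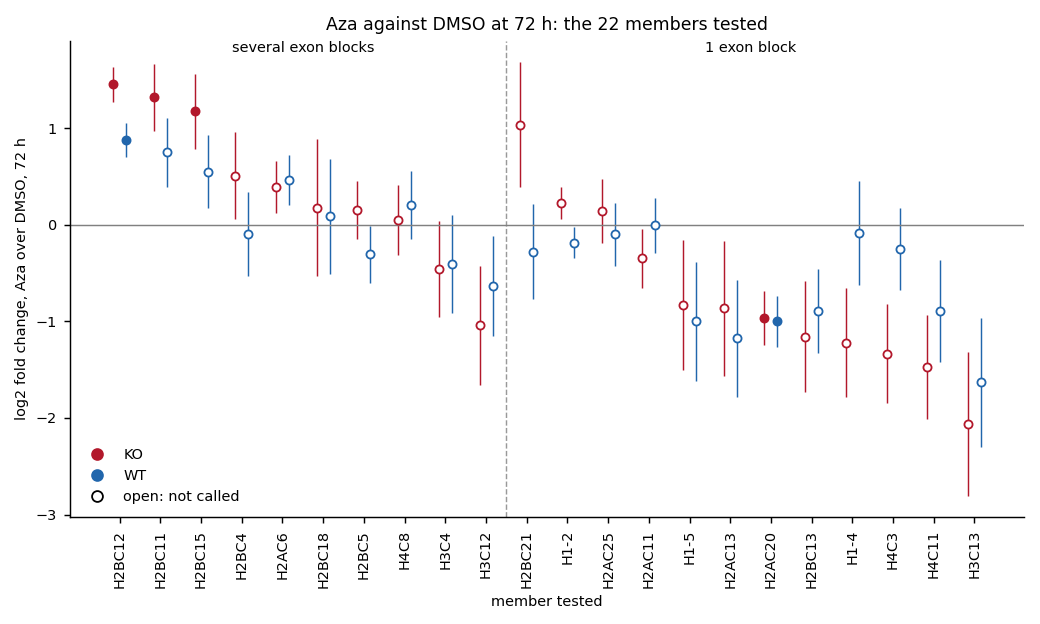
Log2 fold change of Aza over DMSO at 72 h (vertical axis, bars 1 SE) for the 22 members tested, ordered within the groups with several exon blocks (left) and 1 exon block (right), KO in red and WT in blue, filled where called. H2BC12, H2BC11 and H2BC15 lie highest at the left, and H3C13 lies lowest at the right.

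At 264 h the linker histone gene H1-2 was higher with Aza in both genotypes, and H2BC12 was higher in WT. In KO 1 of 22 members was called, against 0.0979% of all genes (0.0816% higher), and in WT 2 of 22, against 0.500% of all genes (0.364% higher). These shares of members exceed the background, on counts of 1 and 2. H1-2 (ENSG00000187837.2, HIST1H1C, hg19 chr6:26055968-26056699, minus strand, 1 exon block) had 6.72 CPM in F4 and 13.45 CPM in A12 with Aza in KO, against 4.85 and 5.06 CPM in F4 and 6.74 and 8.03 CPM in A12 with DMSO. Within each KO clone the Aza library was the highest, and across clones the groups overlapped. The log2 fold change was 0.80 (SE 0.15, adjusted p = 0.0168). In WT it had 11.45 CPM in A7 and 7.34 CPM in C4 with Aza, against 7.17 CPM in A7 and 4.05 CPM in C4 with DMSO, and the log2 fold change was 0.76 (SE 0.16, adjusted p = 0.0224).

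H2BC12 in WT at 264 h had 10.7 CPM in A7 and 7.84 CPM in C4 with Aza, against 4.84 CPM in A7 and 4.6 CPM in C4 with DMSO, with no overlap. Its log2 fold change was 0.99 (SE 0.18, adjusted p = 0.00813). In KO it had 8.30 CPM in F4 and 14.4 CPM in A12 with Aza, against 5.66 and 6.10 CPM in F4 and 7.31 and 8.74 CPM in A12 with DMSO, a log2 fold change of 0.78 that missed the threshold (adjusted p = 0.0682). It was called by DESeq2, with no filter on low counts, on the compared groups alone, with the WT pre-treatment labels exchanged, with those libraries left out, without A7 and without C4. H2AC6, an H2A gene, was not called in KO or in WT, with a log2 fold change of 1.03 in WT (adjusted p = 0.102). In KO it had 9.88 ± 7.53 CPM with Aza against 5.38 ± 3.46 CPM with DMSO. It was called in KO with no filter and on the compared groups alone. In WT it was called by DESeq2, with no filter, on the compared groups alone, with those labels exchanged, with those libraries left out and without A7. None of the calls at 264 h held in every alternative. In batch 1 alone the adjusted p of H1-2 was 0.267 in KO and 0.0545 in WT. H1-2 in KO lost its call without F4 (adjusted p = 0.156) and without A12 (1), H1-2 in WT lost it without any 1 of the clones (0.115 without F4, 0.208 without A12, 0.148 without A7, 0.175 without C4), and H2BC12 in WT lost it without F4 (0.0763), A12 (0.171) or A7 (0.258). Over 14 alternatives the adjusted p ran from 0.000373 to 1 for H1-2 in KO, from 0.000223 to 1 for H1-2 in WT and from 3.96e-06 to 1 for H2BC12 in WT.

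Set against 72 h, the Aza cultures at 264 h had more H1-2 in both genotypes, more H4C11 in KO and less H2BC12 in KO. In KO 3 of 22 members were called, against 20.5% of all genes (9.79% higher, 10.7% lower), and in WT 1 of 22, against 20.4% (10.3% higher), both shares below the background. H1-2 in KO had 6.72 CPM (F4) and 13.45 CPM (A12) at 264 h, against 4.95 CPM (F4) and 9.60 CPM (A12) at 72 h, higher in each clone with overlap between clones. Its log2 fold change was 0.44 (SE 0.16, adjusted p = 0.0442). In WT H1-2 had 11.45 CPM (A7) and 7.34 CPM (C4) at 264 h, against 7.20 CPM (A7) and 4.98 CPM (C4) at 72 h, a log2 fold change of 0.60 (SE 0.16, adjusted p = 0.00749). H4C11 (ENSG00000197238.3, HIST1H4J, hg19 chr6:27791884-27792257, plus strand), one of the genes for histone H4, had 0.478 CPM (F4) and 0.724 CPM (A12) at 264 h, against 0.0773 CPM (F4) and 0.284 CPM (A12) at 72 h. A level of 3 counts corresponds to 0.0735 to 0.12 CPM in these libraries, and the F4 value at 72 h is 2 counts, under that floor, so the fitted fold change gives no exact size. The log2 fold change of H4C11 was 1.68 (SE 0.52, adjusted p = 0.0227). H2BC12 in KO had 8.30 CPM (F4) and 14.4 CPM (A12) at 264 h, against 11.3 CPM (F4) and 22.1 CPM (A12) at 72 h, a log2 fold change of -0.56 (SE 0.17, adjusted p = 0.0168). It was lower in each clone, and the groups overlapped because A12 was above F4 at both times. In batch 1 alone the adjusted p of H1-2 in KO was 0.0601. In KO none of the 3 calls held without F4 (adjusted p = 0.211 for H1-2, 0.266 for H4C11, 0.156 for H2BC12) or without A12 (0.43, 0.15 and 0.44 in the same order), within ranges of 0.0106 to 0.583, 0.0186 to 0.266 and 7.86e-05 to 0.44. In WT H1-2 was not called without A7 (0.119, range 0.00124 to 0.438), and without C4 2 members were called.

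In DMSO alone H4C3 was higher at 72 h than before treatment in both genotypes, and H1-2 and H2AC6 were higher in WT. The median log2 fold change was 0.53 in KO, with 17 of 22 members above 0, and 0.63 in WT, with 20 of 22 above 0, against medians of -0.0013 and -0.02 for all genes in KO and WT. In KO 1 of 22 members was called, against 11.4% of all genes (4.65% higher), and in WT 3 of 22, against 13.6% (6.41% higher). The share of members called was below the background in KO and about equal to it in WT. H4C3 (ENSG00000197061.3, HIST1H4C, hg19 chr6:26104104-26104518, plus strand), a histone H4 gene, had 1.23, 1.42 and 1.04 CPM in KO at 72 h (A12, F4, A12), against 0.239 CPM in F4 and 0.440 CPM in A12 before treatment. The separate time 0 DMSO libraries of batch 2 had 0.711 CPM in F4 and 0.749 CPM in A12, between these. The log2 fold change was 1.96 (SE 0.54, adjusted p = 0.0202), and it was not called without F4 (0.289), without A12 (0.108) or in batch 1 alone (0.2), within a range of 0.000197 to 0.289. In WT H4C3 had 1.35 CPM in A7 and 1.66 CPM in C4 at 72 h, against 0.315 CPM and 0.233 CPM in the libraries labelled A7 and C4 before treatment, with a log2 fold change of 2.46 (SE 0.53, adjusted p = 0.00296). Without C4 its adjusted p was 0.0529, within a range of 2.68e-07 to 0.193. DESeq2 did not call H4C3 in either genotype: it called H2AC6 in KO, and H1-2 and H2AC6 in WT. Before treatment H4C3 had 7 to 12 counts a library.

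H1-2 in WT had 8.75 CPM in A7 and 5.41 CPM in C4 at 72 h of DMSO, against 3.99 CPM and 3.50 CPM in the libraries labelled A7 and C4 before treatment, a log2 fold change of 0.89 (SE 0.17, adjusted p = 0.000883). Without A7 the adjusted p was 0.0792, within a range of 8.56e-05 to 0.268. In KO the change of H1-2 was 0.52 and missed the threshold (adjusted p = 0.0509). H2AC6 (ENSG00000180573.8, HIST1H2AC, hg19 chr6:26124373-26139344, plus strand, 2 exon blocks) had 4.79 CPM in A7 and 4.71 CPM in C4 in WT at 72 h, against 2.49 CPM and 2.6 CPM in the libraries labelled A7 and C4 before treatment. Its log2 fold change was 0.91 (SE 0.28, adjusted p = 0.0375), and it was not called without F4 (0.0866), without A12 (0.119) or in batch 1 alone (0.0836), within a range of 0.000407 to 0.615. With the labels of the WT pre-treatment libraries exchanged, 4 members were called in WT and 5 in KO, beside 3385 and 3128 of all 18391 genes. With those libraries left out 4 members were called in KO, beside 3378 of all 18304 genes. From 72 h to 264 h in DMSO no member was called by edgeR in either genotype, against 4.68% of all genes in KO and 0.00544% in WT. At an unadjusted p under 0.05, 2 members were lower in KO (H3C13 and H2AC20) and 2 in WT (H2BC21 and H1-2), and DESeq2 called 0.

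Between genotypes, 2 KO clones against 2 WT clones in batch 1, no member was called by edgeR in any of 4 conditions. Before treatment 17 members were tested, with a median log2 fold change of 0.22, against a background of 0.0543% of all genes called. The WT libraries there are those whose clone labels are in doubt, and clone is not a term in this test. In DMSO at 264 h 19 were tested (median 0.04, background 0.208%), in Aza at 72 h 17 (median 0.25, background 0.190%) and in Aza at 264 h 18 (median 0.01, background 0.0488%). At an unadjusted p under 0.05 there were 0 members before treatment, 0 for DMSO at 264 h, 1 for Aza at 72 h (H4C3, lower in KO) and 0 for Aza at 264 h, and DESeq2 called 0 in each. H4C3 in Aza at 72 h had 0.696 CPM in F4 and 0.355 CPM in A12, against 1.42 CPM in A7 and 1.09 CPM in C4. With no filter on low counts H2BC12 was called in Aza at 72 h. Without F4 the lone KO clone was taken to vary like the others. More of all genes were then called before treatment than in the main fit, so calls without F4 are not read as differences of single members. In DMSO at 72 h only A12 was left in batch 1 in KO, so no test is given: H2BC12 had 7.41 CPM there, against 4.82 CPM in A7 and 6.97 CPM in C4.

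Genes that make, process, degrade or use histone messages were read in the same comparisons at 72 h of Aza. Lists are given as the number higher and lower among those tested in KO and then in WT, with their median log2 fold changes in that order, beside the backgrounds of 20.1% and 18.3% of all genes called in either direction. Of 10 replication-independent histones, which have introns and polyadenylated messages, 2 were higher and 1 lower in KO, and 0 higher and 1 lower in WT (medians 0.13 and -0.065). The centromere variant CENPA had a log2 fold change of 0.36 in KO, and the H3.3 genes H3-3A and H3-3B had 0.28 and -0.22. The value of H3-3A comes from the model with clone and batch terms, and its plain means had the other order, 203 ± 1.81 CPM in KO Aza and 217 ± 35.8 CPM in KO DMSO. Of 10 regulators of histone gene transcription, 3 were higher and 2 lower in KO and 1 higher and 1 lower in WT (medians 0.15 and 0.073). The S phase activator E2F1 changed by 0.84 in KO and 0.80 in WT, and POU2F1, which binds the octamer, by -0.36 in KO and -0.29 in WT. Of 11 factors of stem-loop 3′ end processing, 2 were higher and 1 lower in KO and 2 higher and 3 lower in WT (medians 0.11 and 0.081). SLBP, the protein that binds the stem-loop, changed by 0.33 in KO and 0.24 in WT. Of 8 factors of histone message decay, TUT4 alone was called, at -0.41 in KO and -0.30 in WT (list medians 0.072 and 0.028). Of 13 general polyadenylation factors, WDR33 alone was lower in KO (-0.20) and none was called in WT (list medians -0.041 and -0.04).

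Of 21 histone chaperones, 4 were higher and 1 lower in KO and 4 higher and 3 lower in WT (medians 0.044 and 0.024), with ATRX, which deposits H3.3 with DAXX, at -0.53 in KO and -0.46 in WT. Of 25 genes of S phase and DNA replication, 10 were higher and 1 lower in KO and 9 higher and 2 lower in WT (medians 0.18 and 0.14). The licensing factors CDT1 (0.65 in KO, 0.45 in WT) and CDC6 (0.57 and 0.44 in the same order) were among those that rose, and the polymerase subunit POLA1 fell (-0.52 and -0.48). Of 13 genes of cell cycle arrest, 4 were higher and 1 lower in each genotype (medians 0.31 and 0.11), with the CDK inhibitor CDKN1A at 1.28 in KO and 1.46 in WT and BTG2 at 1.87 in KO and 1.18 in WT. Of 18 genes of G2 and mitosis, 4 were higher and 0 lower in KO and 2 higher and 3 lower in WT (medians 0.10 and -0.0096). Genes of S phase and of arrest moved in the same comparison in which H2BC12 rose and H2AC20 fell, and their part in those changes was not tested. At 264 h edgeR called none of these genes in KO, and BTG2 alone in WT (1.28), against 0.0979% and 0.500% of all genes. At 264 h against 72 h of Aza, 1 of the 25 S phase genes was higher and 15 lower in KO, against 20.5% of all genes called. In WT 2 of the 25 were higher and 10 lower, against 20.4%. At 72 h of DMSO against pre-treatment, 6 of the 25 were higher and 1 lower in KO, against 11.4% of all genes. In WT 11 were higher and 1 lower, against 13.6%.

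In the table were 12 small noncoding RNAs that lack a poly(A) tail. They summed to 13.0 CPM in KO Aza against 12.7 CPM in KO DMSO at 72 h. In WT the sums were 9.50 CPM with Aza against 8.53 CPM with DMSO. Among the 5 of these RNAs tested, SCARNA13 was higher in KO (log2 fold change 1.40) and none was called in WT. At 264 h the RNAs summed to 9.34 CPM in KO Aza against 8.41 CPM in KO DMSO. In WT they summed to 7.21 CPM with Aza against 7.04 CPM with DMSO. File names record repeat removal before counting, and no strand option is shown. These sums therefore cannot measure how much RNA without a tail each library retained. Markers of other cell types summed to 67 CPM in KO Aza against 45.4 CPM in KO DMSO at 72 h, and to 59.2 CPM in WT Aza against 36.3 CPM in WT DMSO, with 2 of 4 tested higher in each genotype (KRT8 and COL1A1). Of the 10 such markers in the table, 1 was at 0 in every library, and so was 1 of the 11 TF-1 markers. TF-1 markers were higher for 8 of 10 tested in KO and for 6 of 10 in WT, with 1 lower in WT, and at 264 h TFRC (0.53) and GATA1 (0.37) were higher in WT. The part of these differences in the histone values was not tested.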

How the data were processed

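Bulk RNA-seq of TF-1 clones was deposited as 1 table of counts per gene. Per the file headers, the authors used featureCounts 1.6.2 on read pairs and GENCODE release 19 exons, with no strand or multi-mapping option shown, from reads whose file names record adapter, poly(A) and repeat removal. Reads were aligned with STAR 2.6.1d to hg19, per the submitters' processing notes, and the kit was a stranded mRNA kit, per the labels' protocols. Without strand, reads of overlapping or antisense genes cannot be told apart, and pairs that match several histone copies may not be counted.

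From these counts, levels (CPM, and CPM per kilobase of exon) used TMM library sizes, and tests used edgeR 4.0.16 (quasi-likelihood, robust, filterByExpr, Benjamini-Hochberg, called under 0.05) in R 4.3.3. One model of 25 libraries held 11 groups, clone within genotype and batch. KO and WT were compared within each condition in batch 1. The clone block comes from the labels: deviations of a clone from its group mean correlated at 0.63 to 0.855 between KO conditions and 0.792 to 0.864 between WT conditions after treatment. The SE is the absolute log2 fold change divided by the square root of F. DESeq2 1.42.0 was an alternative, beside other library sizes, filters, batches, clones left out and the fit without the clone term. The library that failed quality control (F4, DMSO, 72 h) was left out. In each of 18 library pairs within groups the counts differed by more than sampling allows, with a scaled chi-square of 12.3 or higher. The fits were also tested on simulated data. Figures used matplotlib 3.10.9.

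Members, gene lists and tests were chosen with earlier results of these data known. Text names each called member, the 10 members with the highest level, and up to 4 called genes of each other list, and any other member was chosen after its values were seen.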

Additional observations from a re-analysis of the deposited data

Results flagged for a closer look

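The library that failed quality control (clone F4, DMSO, 72 h, 30621931 counts) was left out of every comparison, and its members summed to 57.9 CPM when scaled together with the others, against 35.8 to 41.6 CPM in the 3 passing KO DMSO libraries at 72 h. It lay above their range in every family: 13.7 CPM against 7.13 to 9.36 for H1, 18.9 against 12.3 to 15.6 for H2A, 17.5 against 11.4 to 13.8 for H2B, 2.78 against 1.11 to 2.02 for H3 and 4.97 against 2.86 to 3.32 for H4.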

How the results depend on the processing

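With 2 clones a genotype, counts of called members moved with the settings, and no called fold change reversed. Of 232 fold changes of called members under the alternatives, 160 kept their side of the threshold and 72 were no longer past it. The summed levels moved by less than 1 SD with raw totals as library sizes, and in every alternative the median log2 fold change of all genes lay within 0.03924 of 0. The cause of the moves below was not tested, beyond the fewer libraries that some alternatives hold.

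The number of all genes called moved with the settings too, so a changed count of members can go with a changed background. For Aza in KO at 72 h, 3694 of 18391 genes were called in the main fit. Without the clone term 1975 were, and with the WT pre-treatment labels exchanged 4587 were. Counts of called members are given as alternative against main. Without the replicate block (no clone term) they were 1 against 4 for Aza in KO at 72 h, 1 against 2 in WT at 72 h, 0 against 1 in KO and 0 against 2 in WT at 264 h, 0 against 3 in KO and 0 against 1 in WT for Aza at 264 h against 72 h, and 0 against 1 in KO and 1 against 3 in WT for DMSO at 72 h against pre-treatment. The block changed no count for DMSO at 264 h against 72 h or for the differences between genotypes in the Aza effect. In batch 1 alone they were 1 against 4 for Aza in KO at 72 h, 0 against 1 in KO and 1 against 2 in WT at 264 h, and 0 against 1 for DMSO at 72 h in KO. With the failed library included they were 6 against 4 for Aza in KO at 72 h, 1 against 2 for Aza in WT at 72 h, 0 in both genotypes at 264 h (against 1 and 2), 0 in both at 264 h against 72 h (against 3 and 1), and 6 against 1 in KO and 1 against 3 in WT for DMSO at 72 h. On the compared groups alone they were 6 against 2 for Aza in WT at 72 h (5135 of 16321 genes called). At 264 h they were 3 against 1 in KO (131 of 17126 genes) and 5 against 2 in WT (1162 of 16268). For DMSO at 72 h they were 2 against 1 in KO (763 of 16888 genes) and 0 against 3 in WT (0 of 16456). With the WT pre-treatment labels exchanged, the pairing the correlations pointed to, they were 7 against 4 for Aza in KO at 72 h, 2 against 1 in KO and 4 against 2 in WT at 264 h, and in KO 5 against 1 for DMSO at 72 h and 1 against 0 at 264 h against 72 h. With those libraries left out they were 6 against 4 for Aza in KO at 72 h, 2 and 4 for Aza at 264 h in KO and WT, 4 for DMSO at 72 h in KO and 1 at 264 h against 72 h. With no filter on low counts they were 3 in KO and 4 in WT for Aza at 264 h, 2 for DMSO at 72 h in KO, and 1 against 0 for KO against WT in Aza at 72 h (H2BC12). DESeq2 called 2 for Aza at 264 h in KO and 1 at 264 h against 72 h. DESeq2 size factors, and a mean count of 10, each gave 2 for DMSO at 72 h in KO.

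Leaving out 1 clone at a time gave 0 to 6 for Aza in KO and 1 to 2 in WT at 72 h, 0 to 2 in KO and 0 to 1 in WT at 264 h, 0 to 3 in KO and 0 to 2 in WT for Aza at 264 h against 72 h, 0 to 4 in KO and 2 to 3 in WT for DMSO at 72 h, and 0 to 1 for DMSO at 264 h against 72 h in KO and for KO against WT before treatment and in Aza at 72 h. A lone clone was then taken to vary like the other groups. At 3 counts a library resolves 0.0735 to 0.12 CPM, so differences among the 13 members under 10 counts in every library were not detectable at this depth.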
